A study of Mus musculus with 18 samples.

Results

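RNA of the most mature splenic NK cells of mice with an induced Eomes deletion was compared with RNA of immature NK cells of the same genotype. The comparison used 6 of the 18 sequenced libraries of the series: 3 libraries of Eomes-deleted (KO) cells sorted as stage IV and 3 sorted as stage II. All expressed genes entered it, which were the 14156 of 41388 listed genes with enough counts to be tested. KO mice were C57BL/6 animals with a Cre recombinase fused to a tamoxifen-responsive receptor in 1 allele of Ncr1 (Ncr1-iCreERT2 KI/WT), the Cre-dependent YFP reporter Rosa26YFPLSL, and floxed Eomes alleles (Eomesfl/fl). At 8 to 12 weeks of age they received tamoxifen for 3 days, and spleens were pooled before sorting in 3 separate experiments. Stage II cells carried CD27 without CD11b, and stage IV cells carried CD11b without CD27. Because Cre was driven from Ncr1, it could act only in cells that make NKp46, and both KO groups carried the same alleles and the same treatment. Wild-type (WT) cells sorted in the same way, with 3 libraries a stage, served to test whether a change differed between genotypes. The entries of 8 to 12 weeks of age and 3 days of tamoxifen stand for the WT libraries as well. The WT label gives no further alleles, and whether the shared tamoxifen entry describes the WT mice too is not clear from the labels.

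NK cells are innate lymphocytes that kill infected or transformed cells by releasing granules of perforin and granzymes. In the mouse spleen they mature from a CD27-bearing state, with memory-like and proliferative features, to a CD11b-bearing state that is strongly cytotoxic and circulates in blood. The related T-box transcription factors Eomes and T-bet are both known to act in this process, and type 1 innate lymphoid cells (ILC1) depend on T-bet rather than on Eomes. The comparison of stage IV with stage II asks which parts of the maturation programme could be read in the RNA of cells after Eomes deletion.

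Total counts were 21942834 to 26092733 in KO stage II and 18684350 to 25147639 in KO stage IV. KO stage IV replicate 3 stood apart in having a count for 27912 genes, against 18228 and 20465 in the other stage IV libraries, and 9854 of them had only 1 to 5 counts. WT stage II replicate 1 stood apart likewise, with 29859 genes, of which 10135 had 1 to 5 counts. KO stage III replicates 1 and 3, which entered the model only through its estimate of the spread, had counts for 14824 and 16536 genes, against 21454 in replicate 2. RNA of a sorted population cannot tell fewer cells of a type from less RNA per cell, and this holds for every value below. The labels do not say whether replicates were separate pools of mice, so p-values measure the spread between these libraries.

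Eomes itself (chromosome 9, 118478212 to 118486132, GRCm38) had 1440, 1777 and 1310 counts in KO stage II and 2254, 2750 and 2194 in KO stage IV. In CPM, counts scaled to the library total, it stood at 55.2, 74.3 and 59.7 in stage II and at 121, 109 and 89.8 in stage IV, so that the groups did not overlap. The residual transcript therefore rose 1.76-fold (log2 fold change 0.82 ± 0.15 (SE, n = 3 per stage), adjusted p = 7.7e-04). Adjusted p-values are from edgeR's quasi-likelihood test with Benjamini-Hochberg adjustment over the tested genes, and values under 0.05 were called changed. WT cells had more Eomes RNA than KO cells at each of these stages, at 191, 210 and 212 CPM in stage II and 253, 237 and 275 CPM in stage IV. The change with stage was 0.39 on the log2 scale in WT cells and did not pass (adjusted p = 0.083), and the difference of the KO and WT changes did not pass either (0.42, adjusted p = 0.772). The counts cover the whole gene, so they do not say how many cells kept an intact allele, and the sources used here do not name the floxed exons.

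Tbx21, which encodes T-bet, also rose in KO cells, from 182, 101 and 96.5 CPM in stage II to 212, 240 and 285 CPM in stage IV. This was a 2.03-fold change (adjusted p = 0.00206). Transcripts of both sort markers followed the gates, as the sort itself would give. Cd27 fell by 3.32 on the log2 scale, from 401, 378 and 387 CPM to 47.1, 29.7 and 35.1 CPM. Itgam, the gene of CD11b, rose 30.1-fold, from 22.3, 26.5 and 17.6 CPM to 486, 720 and 710 CPM. Ncr1, the gene of NKp46 and the locus of the Cre allele, was at 2353, 2128 and 2292 CPM in stage II and 2187, 1964 and 1955 CPM in stage IV, and did not pass the test (log2 fold change -0.09 ± 0.27, adjusted p = 0.885). Over 10 NK identity markers the summed level was 20090 to 22416 CPM in stage II and 41231 to 48482 CPM in stage IV. Of the 10, 5 rose and none fell, against 6.12% and 8.76% of all tested genes. The list had a median log2 fold change of 0.34. The abundant genes Gzma, Prf1 and Nkg7 are on this list and rose.

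Across all tested genes, 2106 (14.9%) changed between KO stage II and KO stage IV, of which 866 (6.12%) rose and 1240 (8.76%) fell. Among the genes that rose, 453 did so at least 2-fold, 90 at least 8-fold and 30 at least 32-fold. Among those that fell, the numbers were 756, 248 and 73. All 3 libraries of a stage lay beyond all 3 of the other stage for 843 of the 866 and for all 1240, against 37.5% of all tested genes. The median log2 fold change of all tested genes was 0.03. With any library left out, 1429 to 2540 genes were called, and without KO stage II replicate 3 only 539 genes were called higher. Without KO stage IV replicate 3, the library with many low counts, 1621 genes were called. Without KO stage III replicates 1 and 3, 3355 were called, among them 2102 of the 2106.

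By a fixed rule of fold, level and non-overlap, the 12 highest were Gpx8, Rhpn1, Cma1, Cx3cr1, Cdc20b, Klrg1, I830127L07Rik, Parm1, Cmklr1, Itgam, Serpinb9b and Mcam. Cma1, mast cell chymase, stood at 2.72, 7.28 and 3.15 CPM in stage II and at 664, 606 and 694 CPM in stage IV, a 155-fold rise (log2 fold change 7.28 ± 0.48, adjusted p = 1.47e-08). Cx3cr1, the receptor for fractalkine on patrolling and terminally mature lymphocytes, rose 99.5-fold from 2.72, 3.97 and 2.0 CPM to 246, 324 and 263 CPM (adjusted p = 3.66e-06). Klrg1, an inhibitory lectin-like receptor that marks terminal NK maturation, rose 52.8-fold from 17.7, 20.7 and 13.1 CPM to 825, 869 and 914 CPM. Stage II libraries of Cma1 and Cx3cr1 were spread more widely, in ratio, than their stage IV libraries.

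Gpx8, an endoplasmic reticulum peroxidase, had the largest fitted change, from 5, 25 and 5 counts in stage II to 2426, 2814 and 3569 counts in stage IV (272-fold, adjusted p = 8.55e-07). Gpx8 lies on chromosome 13 within the bounds of Cdc20b, on the other strand, and the sources used here do not say whether counting used strand. Reads of these overlapping genes may thus not be told apart, and Cdc20b rose as well, from 1.07, 1.63 and 1.64 CPM to 90.6, 129 and 121 CPM (81.8-fold). Rhpn1 went from 3, 4 and 0 counts to 302, 537 and 747 counts. Serpinb9b, a relative of the granzyme B inhibitor Serpinb9, rose 24.0-fold from 10.1, 19.2 and 17.8 CPM to 343, 360 and 383 CPM. Cmklr1, the receptor for chemerin, rose 34.4-fold and Mcam, the adhesion molecule CD146, rose 22.2-fold.

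The genes that fell most included 2 cytokine receptor chains, Il7r and Il2ra. The 12 lowest by the same rule were Apol7b, Cd200r2, Gpr34, Ccdc184, Il7r, Krt83, Ckb, Tcrg-C4, Tgtp1, Asb2, Fam184b and Il2ra. Il7r, the interleukin-7 receptor chain, fell from 667, 613 and 697 CPM in stage II to 5.73, 5.29 and 3.85 CPM in stage IV, which was 128-fold (log2 fold change -7.00 ± 0.37, adjusted p = 9.83e-10). Il2ra, the high-affinity interleukin-2 receptor chain, fell 83.5-fold from 64.0, 52.0 and 67.0 CPM to 0.428, 0.954 and 0.655 CPM. Cd200r2, a member of the CD200 receptor family, fell 163-fold from 118, 96.4 and 107 CPM to 0.428, 0.676 and 0.737 CPM (adjusted p = 3.88e-10). Ckb, the brain-type creatine kinase that buffers ATP, fell 116-fold from 227, 170 and 177 CPM to 2.14, 1.27 and 1.39 CPM. Asb2, a substrate receptor of an E3 ubiquitin ligase, fell 94.3-fold from 385, 262 and 282 CPM to 3.21, 2.55 and 3.68 CPM. Tcrg-C4, a constant segment of the T cell receptor gamma locus, fell 107-fold, from 325, 290 and 398 CPM to 4.12, 2.43 and 2.66 CPM. All 24 calls, of genes chosen for groups that do not overlap, held in each of the 18 fits that left out a single library. Apol7b, Tgtp1, Serpinb9b and the pseudogene I830127L07Rik belong to families of near-identical copies, so their reads may be split among relatives.

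**Figure D1:**
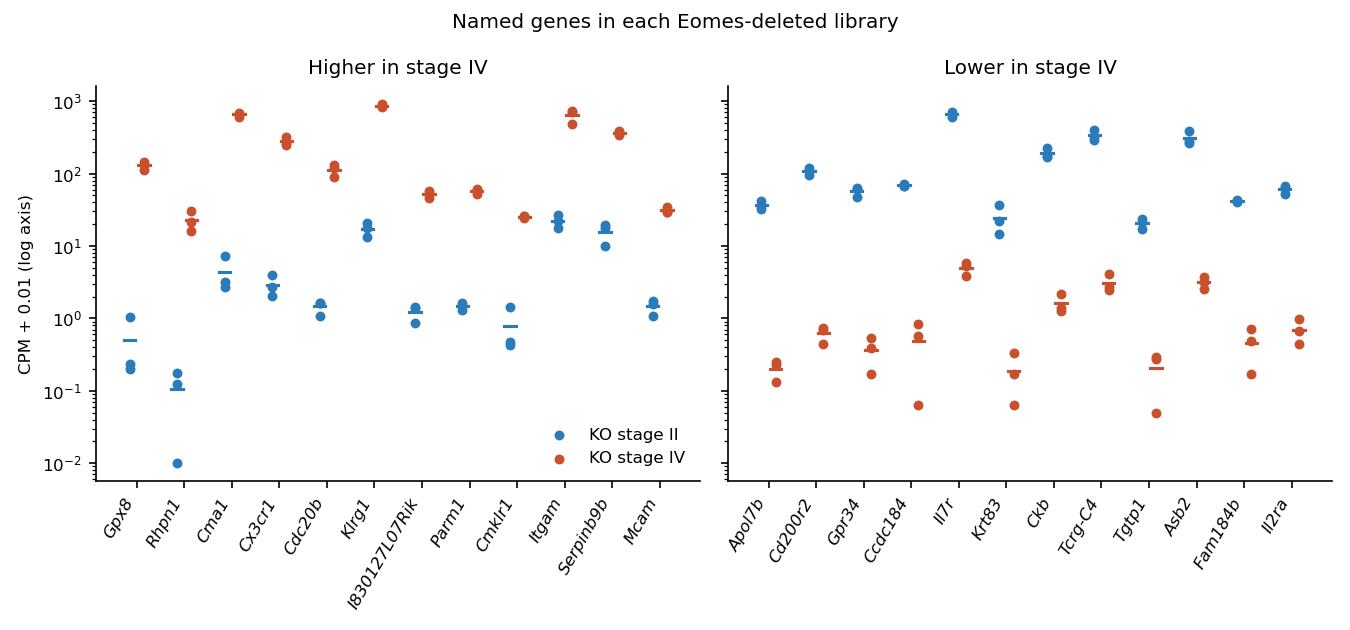
CPM (log axis, with 0.01 added) of the 12 genes that rose most and the 12 that fell most, in each of the 3 KO stage II (blue) and 3 KO stage IV (red) libraries. Short bars are group means. Groups that do not overlap were a condition of the choice of these genes, and Gpx8 has the largest fitted rise (272-fold).

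Of 14 markers of mature NK cells, 12 rose, none fell and 2 did not pass, with a median log2 fold change of 2.71 against 0.03 over all genes. The share called was 85.71%, while 6.12% of all tested genes rose and 8.76% fell. This list and those below were chosen with earlier results of these data known. DESeq2 called 13 higher and none lower. S1pr5, the sphingosine 1-phosphate receptor that lets NK cells leave lymphoid tissue, rose 17.6-fold from 21, 20.8 and 17.4 CPM to 374, 297 and 330 CPM (log2 fold change 4.14 ± 0.15, adjusted p = 4.6e-11). Ly6c2, a surface glycoprotein of mature cells, rose 7.35-fold from 87.3, 109 and 85.7 CPM to 714, 719 and 556 CPM. Spn, which encodes the sialoglycoprotein CD43, rose 2.30-fold. The 2 markers that did not pass were the integrin chains Itgax (log2 fold change 0.20, adjusted p = 0.482) and Itgal (0.45, adjusted p = 0.0756).

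Of 14 markers of immature NK cells, 13 fell and 1 rose, with a median of -3.02. Over all tested genes, 8.76% fell and 6.12% rose. In WT cells 13 of the 14 fell and none rose. Emb, an immunoglobulin-family adhesion molecule, fell 48.9-fold from 347, 422 and 365 CPM to 10.5, 6.80 and 5.03 CPM. Cd160, a receptor for HVEM, fell 9.09-fold from 2702, 2332 and 2601 CPM to 335, 234 and 236 CPM. Ltb, the lymphotoxin beta gene, fell 23.9-fold, although KO stage II replicate 1 held 214 CPM against 57.2 and 48.2 CPM in replicates 2 and 3. Kit, the stem cell factor receptor, fell 7.28-fold.

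Transcription factors moved in both directions. Of 31 tested, 7 rose and 13 fell (64.52% called, against 14.9% of all tested genes), with a median of -0.05. Zeb2, a repressor that cooperates with T-bet in terminal NK maturation, rose 14.2-fold from 35.1, 48.2 and 31.7 CPM to 545, 515 and 506 CPM. Prdm1, the gene of Blimp-1, rose 5.58-fold from 20.3, 18.9 and 19.0 CPM to 84.9, 122 and 103 CPM. Irf8 rose 5.81-fold and Runx1 1.60-fold. Tcf7, the gene of TCF-1 and a factor of early NK cells, fell 6.66-fold from 570, 578 and 556 CPM to 108, 73.8 and 63.1 CPM. Id3, an inhibitor of E proteins, fell 23.3-fold from 84.5, 43.9 and 66.9 CPM to 2.89, 2.46 and 2.66 CPM. Ikzf2 (Helios) fell 9.72-fold, Rora 7.79-fold, Maf 3.93-fold and Tox 2.94-fold. Id2, an inhibitor of E proteins that all innate lymphoid cells need, was at 4916, 3835 and 4089 CPM in stage II and 5209, 3796 and 3645 CPM in stage IV and did not pass (log2 fold change 0.04, adjusted p = 0.947).

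Of 20 genes of granule cytotoxicity, 9 rose and 3 fell, with a median of 0.68. Among all tested genes, 6.12% rose and 8.76% fell. Gzma, the gene of granzyme A, rose 18.8-fold from 790, 958 and 957 CPM to 19221, 14426 and 15236 CPM (log2 fold change 4.23 ± 0.27, adjusted p = 1.01e-08). Gzmb, the gene of granzyme B, rose 15.9-fold from 146, 238 and 196 CPM to 2225, 3609 and 3032 CPM. Prf1, the gene of the pore-forming protein perforin, rose 6.78-fold from 386, 389 and 317 CPM to 1997, 2650 and 2446 CPM. Stage IV replicate 1 was the highest stage IV library for Gzma and the lowest for Gzmb and Prf1, and no library overlapped between stages. Serpinb9, which protects the killer cell from its own granzyme B, rose 2.43-fold. The 3 genes that fell were Gzmc (10.2-fold), Gzmm (2.78-fold) and Tnfsf10, the gene of the death ligand TRAIL, at 88.4, 65.2 and 76.1 CPM in stage II and 6.26, 6.60 and 6.75 CPM in stage IV (11.2-fold). The granule exocytosis genes Unc13d, Rab27a and Stxbp2 had log2 fold changes of 0.49, 0.73 and -0.21 and did not pass. Granzyme genes are similar to each other, and reads that fit several of them could have been left out or split.

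Upstream sequences are shown for Gzma and Cd200r2, a gene that rose and a gene that fell, because each holds a match to a factor of this programme. The windows are the 250 bases before the transcript start, from RefSeq on GRCm38.p6, written 5′ to 3′ along the gene's own strand. Capitals mark CAGGTG, a ZEB-type E-box, or its reverse complement CACCTG in Gzma, and TCACACC, the reverse complement of the T-box site GGTGTGA, in Cd200r2.
Gzma, chr13:113100982-113101231, minus strand: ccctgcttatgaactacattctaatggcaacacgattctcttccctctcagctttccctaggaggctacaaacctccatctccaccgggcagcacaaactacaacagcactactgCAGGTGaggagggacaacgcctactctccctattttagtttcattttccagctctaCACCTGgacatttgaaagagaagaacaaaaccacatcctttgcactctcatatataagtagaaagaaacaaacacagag
Cd200r2, chr16:44866847-44867096, plus strand: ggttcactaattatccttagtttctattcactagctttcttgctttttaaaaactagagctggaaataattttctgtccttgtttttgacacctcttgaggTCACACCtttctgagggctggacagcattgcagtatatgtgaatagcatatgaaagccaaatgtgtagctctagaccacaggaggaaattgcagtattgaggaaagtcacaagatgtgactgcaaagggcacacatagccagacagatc
The Gzma matches begin 135 and 79 bases before the start, and the Cd200r2 match 149 bases before it. CAGGTG on either strand was in 17.22% of all 32851 promoter windows, in 15.7% of those of tested genes, in 18.56% of those of genes that rose and in 18.98% of those of genes that fell. GGTGTGA on either strand was in 3.33% of all windows, 2.9% of those of tested genes, 2.47% of those of genes that rose and 3.07% of those of genes that fell. RefSeq windows were matched by symbol for 655 of 862 symbols that rose and 932 of 1237 that fell, and some genes have several. A match describes the letters only.

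Of 12 Ly49 receptor genes, the MHC class I receptors of mouse NK cells, 9 rose and none fell, with a median of 1.12. The share called was 75.0%, against 14.9% of all tested genes. DESeq2 also called 9 higher and none lower. Klra9 rose 7.87-fold from 100, 122 and 115 CPM to 897, 826 and 824 CPM. Klra8, the gene of Ly49H, which recognises a cytomegalovirus protein, rose 2.87-fold from 394, 544 and 379 CPM to 1366, 1193 and 1062 CPM. In WT cells, 3 of the 12 rose and 1 fell between the same stages. Klra8 was at 881, 1092 and 1158 CPM in WT stage II and at 1215, 1296 and 1380 CPM in WT stage IV. No Ly49 gene passed the test of the difference between genotypes, and Klra8 came closest by value (log2 difference 1.13, adjusted p = 0.0974). In that test 9 of the 12 had an unadjusted p under 0.05, against 983 of 14156 tested genes. The median log2 difference of the 12 was 0.89. These genes are near copies of each other, so single Ly49 values are uncertain.

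Of 28 other NK receptor genes, 5 rose and 10 fell (53.57% called, against 14.9% of all tested genes), with a median of -0.09. Cd226, the activating receptor DNAM-1, fell 10.3-fold from 354, 359 and 404 CPM to 42.5, 30.3 and 31.7 CPM, and Cd96, which shares its ligand, fell 2.43-fold from 355, 324 and 346 CPM to 140, 135 and 129 CPM. The inhibitory receptors Lag3 and Tigit fell 8.94-fold and 2.43-fold. Klrc1, the gene of NKG2A, fell 2.20-fold, while Klrc2, the gene of NKG2C, rose 2.06-fold and their shared partner Klrd1 (CD94) rose 1.83-fold. Klrk1, the gene of NKG2D, had a log2 fold change of -0.02 ± 0.09 and did not pass (adjusted p = 0.922). The count of 5 that rose dropped to 3 without KO stage II replicate 1, 2 or 3 or KO stage IV replicate 1 or 2.

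Homing receptors included large changes in opposite directions, with 11 of 22 higher, 5 lower and a median of 0.46. The share called was 72.73%, against 14.9% of all tested genes. Beside Cx3cr1 and S1pr5, the integrin chains Itgae and Itga4 rose 3.19-fold and 2.09-fold, and Itgb1 rose 1.87-fold. Cxcr3, the receptor for interferon-induced chemokines, fell 35.7-fold from 950, 665 and 820 CPM to 32.1, 14.1 and 19.4 CPM. Cxcr6, a receptor that holds lymphocytes in the liver sinusoids, fell 24.8-fold from 389, 253 and 376 CPM to 21, 9.07 and 9.45 CPM. Ccr2, which guides cells out of the marrow and to inflamed tissue, was at 495, 468 and 474 CPM in stage II and 421, 361 and 364 CPM in stage IV and did not pass (log2 fold change -0.27, adjusted p = 0.14).

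**Figure D2:**
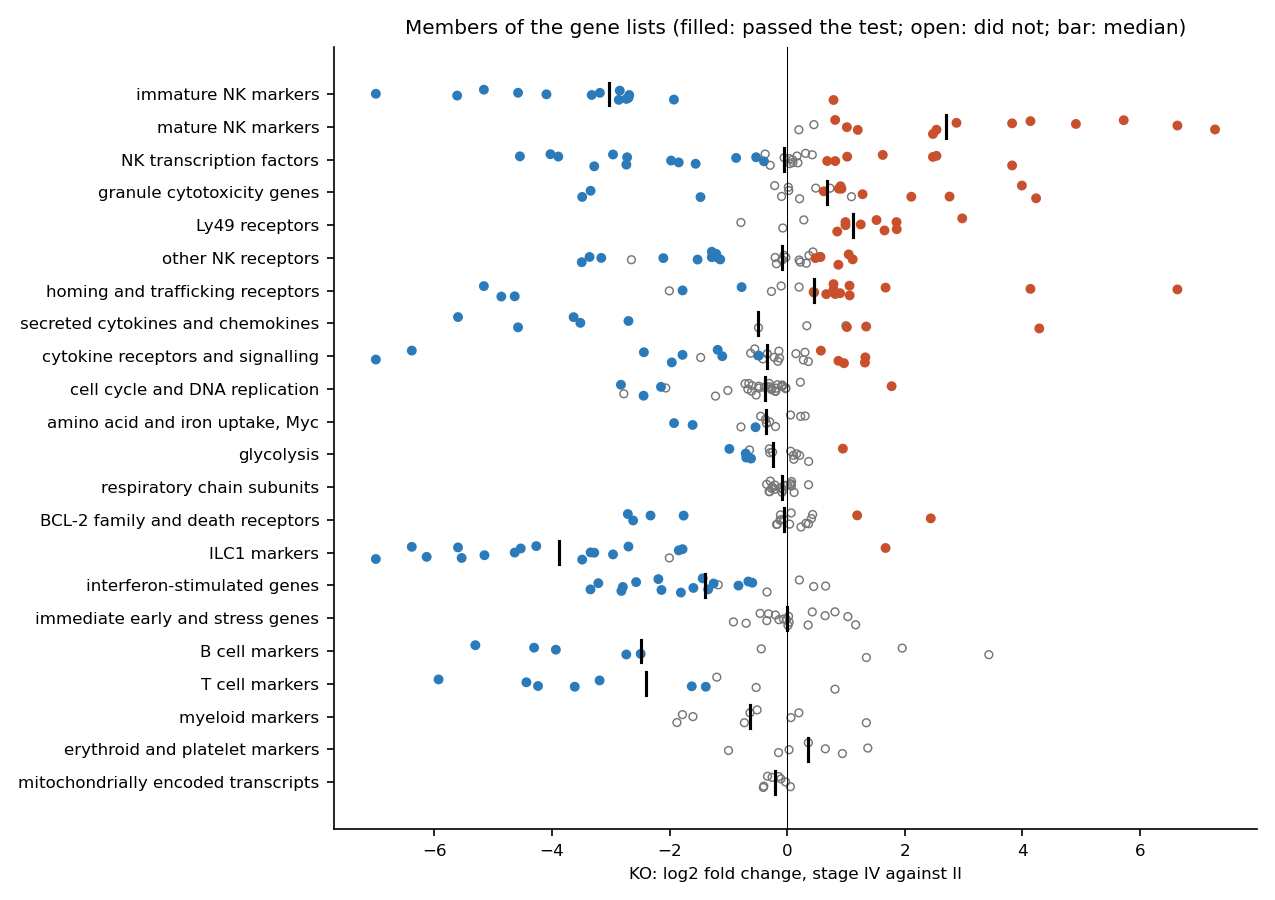
Log2 fold change of KO stage IV against KO stage II for each tested member of 22 gene lists. Filled circles passed the test (red higher, blue lower), open circles did not, and black bars are medians. The mature NK list has a median of 2.71, the immature NK list -3.02 and the ILC1 list -3.88.

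Of 11 tested cytokine and chemokine genes, 3 rose and 5 fell (72.73% called, against 14.9% of all tested genes), with a median of -0.49. Lta, the gene of lymphotoxin alpha, fell 48.5-fold from 36.8, 35.8 and 28.8 CPM to 0.749, 0.676 and 0.573 CPM, and Tnf fell 11.4-fold. Csf2, the gene of GM-CSF, fell 12.4-fold from 15.1, 15.6 and 16.2 CPM to 0.963, 1.43 and 1.19 CPM. Ccl5, a chemokine stored by cytotoxic lymphocytes, rose 2.02-fold from 16901, 16660 and 18054 CPM to 37085, 29752 and 33350 CPM. Ccl9 rose 19.5-fold, from 0.383, 5.82 and 0.820 CPM to 46.1, 45.9 and 40.3 CPM.

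Of 27 genes of cytokine receptors and their signalling, 5 rose and 8 fell, with a median of -0.34. The share called was 48.15%, against 14.9% of all tested genes. Beside Il7r and Il2ra, the negative regulators Cish and Socs2 fell 3.90-fold and 5.42-fold. Cish was at 60.8, 59.8 and 64.9 CPM in stage II and 11.8, 14.9 and 19.0 CPM in stage IV. Il12rb1 and Il12rb2 encode the chains of the interleukin-12 receptor and moved in opposite directions, 2.27-fold lower and 2.50-fold higher. Il18rap, a chain of the interleukin-18 receptor, rose 2.51-fold from 541, 561 and 526 CPM to 1331, 1375 and 1215 CPM, and Ifngr1 rose 1.83-fold.

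Of 32 cell cycle and DNA replication genes, 1 rose and 3 fell, with a median of -0.37, a share of 12.5% called against 14.9% of all tested genes. In WT cells 13 fell, and no gene of the list passed the test of the difference between genotypes, with 1 at an unadjusted p under 0.05. Mki67, the proliferation antigen Ki-67, was at 6.09, 9.41 and 11.4 CPM in stage II and 8.35, 6.24 and 5.65 CPM in stage IV and did not pass (log2 fold change -0.35, adjusted p = 0.79). Stmn1, a microtubule-destabilising protein, rose 3.42-fold from 3.10, 6.23 and 3.69 CPM to 15.6, 13.7 and 13.6 CPM. Of the 3 that fell, 1 remained called without KO stage II replicate 2, KO stage IV replicate 1 or KO stage IV replicate 3. None did without KO stage II replicate 3 or KO stage IV replicate 2. Of 12 genes of amino acid and iron uptake and Myc, 3 (25.0%) fell, among them Odc1, the first enzyme of polyamine synthesis (3.80-fold). That count was 1 without KO stage II replicate 2 or 3 or KO stage IV replicate 2 or 3.

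Of 15 glycolysis genes, 1 rose and 4 fell (33.3% called), among them Gpi1 and Aldoa (1.62-fold and 1.53-fold). The glycolysis count of 4 was 2 without any library of KO stage II or without KO stage IV replicate 1 or 2. The 1 that rose was lost without KO stage II replicate 3 or KO stage IV replicate 2, and 2 rose without KO stage III replicate 3. None of 20 respiratory chain subunit genes passed edgeR's test, while 2 had an unadjusted p under 0.05 and DESeq2 called 2 lower. Without KO stage III replicate 2 or 3, edgeR called 1 of them lower. Of 19 tested genes of the BCL-2 family and death receptors, 2 rose and 4 fell (31.58% called, against 14.9% of all tested genes). Bcl2a1b and Bcl2a1d, near-identical survival genes, fell 3.39-fold and 5.01-fold, and Tnfrsf10b, the receptor of TRAIL, fell 6.15-fold. The count of 2 that rose was 1 without KO stage II replicate 1 and 0 without KO stage II replicate 3 or KO stage IV replicate 2.

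Markers of ILC1, a tissue-resident relative of NK cells, fell in KO stage IV: of 18 tested, 16 fell and 1 rose, with a median of -3.88. The share called was 94.44%, against 14.9% of all tested genes. In WT cells the counts were the same, 16 lower and 1 higher, with a median of -4.43. Of the 18, 1 passed the test of the difference between genotypes. In that test 9 had an unadjusted p under 0.05, against 983 of 14156 tested genes. The summed level of these markers was 3824 to 5142 CPM in KO stage II and 310 to 741 CPM in KO stage IV. Cd200r1, an inhibitory receptor, fell 70.1-fold from 169, 146 and 188 CPM to 1.93, 1.55 and 3.40 CPM. Tmem176a and Tmem176b, paired membrane channels, fell 46.4-fold and 35.5-fold. Itga1, the CD49a chain that marks ILC1, fell 3.43-fold from 32.1, 28.5 and 28.6 CPM to 7.39, 8.55 and 8.96 CPM. Itgae, the CD103 chain, was the member that rose. Members that also stand on other lists above include Il7r, Xcl1, Cxcr6, Gzmc, Tnfsf10, Il2ra, Ikzf2, Rora, Lta and Itgae, so the counts of these lists are not independent. Whether stage II holds cells of this type was not tested.

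Interferon-stimulated genes fell as a group, with 15 of 20 lower (75.0%, against 8.76% of all tested genes), none higher and a median of -1.39. Ifit1, a sensor of foreign RNA, fell 7.06-fold from 41.4, 45.0 and 56.7 CPM to 7.28, 6.76 and 5.40 CPM. Oas3, an activator of RNase L, fell 10.2-fold from 23.9, 18.7 and 26.9 CPM to 1.77, 1.71 and 3.07 CPM, and Rsad2 (viperin) fell 6.94-fold. DESeq2 called the same numbers, 15 lower and none higher. Of 18 immediate early and stress genes, none passed and none had an unadjusted p under 0.05, also by DESeq2. Their summed level in replicates 1, 2 and 3 was 4931, 9382 and 6521 CPM in KO stage II and 4194, 11139 and 7019 CPM in KO stage IV. Replicate 1 was also the lowest library in KO stage III and in each WT stage.

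Markers of other blood cells were read in the same libraries. Of 9 tested B cell markers 5 fell (55.56%, against 8.76% of all tested genes). The 11 on the list had a summed level of 1970 to 2096 CPM in stage II and 170 to 229 CPM in stage IV. The sum was mostly Ighm, at 1213, 1083 and 1319 CPM in stage II and 198, 145 and 178 CPM in stage IV, and Cd74, the invariant chain of MHC class II, which fell 39.5-fold. The defining B cell gene Pax5 was near 0 in both stages: it had 4 counts in a single library and 0 in the others. Of 10 tested T cell markers 7 fell (70.0%). The 12 on the list had a summed level of 975 to 1160 CPM in stage II and 294 to 358 CPM in stage IV. Cd3g, a chain of the T cell receptor complex, fell 21.6-fold from 102, 76.1 and 115 CPM to 4.17, 2.19 and 6.71 CPM, and Cd3d fell 9.13-fold. Cd4 had at most 13 counts and Cd8a at most 7 in any of the 6 libraries. With the T cell marker at 0 in all stage IV libraries set to its bound, the list median was -2.33. None of 9 tested myeloid markers passed, none had an unadjusted p under 0.05, and their sums were 260 to 350 CPM in stage II and 329 to 359 CPM in stage IV. None of 7 erythroid and platelet markers passed, with 1 at an unadjusted p under 0.05, and their sums stayed at or under 9.13 CPM. DESeq2 called none of either list. None of 8 mitochondrially encoded transcripts passed either test, with 1 at an unadjusted p under 0.05. The part of B and T cell transcripts in the other genes that fell was not tested.

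Most of this programme was shared with WT cells, in which 2135 genes (15.1%) changed between stage II and stage IV, 745 higher (5.26%) and 1390 lower (9.82%). The 521 genes that rose in both genotypes made up 60.16% of those that rose in KO and 69.93% of those that rose in WT. The 886 that fell in both made up 71.45% of the KO and 63.74% of the WT set. Only 1 gene called in KO was called the other way in WT. The KO and WT comparisons share no library, although 1 model estimated their spread. KO stage III lay between stages II and IV in its mean level for 642 of the 866 genes that rose and 849 of the 1240 that fell. With KO stage III replicate 2 alone, the numbers were 740 and 989. These genes were chosen for a difference between stages II and IV, which by itself favours a level between them. No share over all tested genes was taken.

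The difference between the KO and the WT change was then tested for each gene, and 30 of 14156 passed (0.212%), 23 with a change that was higher in KO (0.162%) and 7 with a lower one (0.0494%). At an unadjusted p under 0.05 there were 983. Of the 30, 13 rose in both genotypes and more so in KO. For all of these 13 the KO stage II mean was below the WT stage II mean. For 21 of the 30, KO and WT means were closer at stage IV than at stage II. With replicate number as a block, 59 passed. The count of 30 rested on single libraries. It was 2 without KO stage II replicate 3, 9 without KO stage II replicate 1, and 17 and 8 without KO stage IV replicates 2 and 3. Leaving out WT libraries gave 8 and 6 for stage II replicates 2 and 3, 18 and 19 for stage III replicates 2 and 3, and 18, 5 and 3 for stage IV replicates 1, 2 and 3. Without both libraries with many low-count genes, KO stage IV replicate 3 and WT stage II replicate 1, it was 13. It was 66, 62 and 46 without KO stage III replicates 1, 2 and 3. The female-specific RNA Xist stood at 14.9 to 36.1 CPM across the 6 KO libraries. In WT cells, replicates 2 and 3 had at most 0.636 CPM and replicate 1 had 35.5 to 45.2 CPM. The part of this in the differences was not tested.

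**Figure D3:**
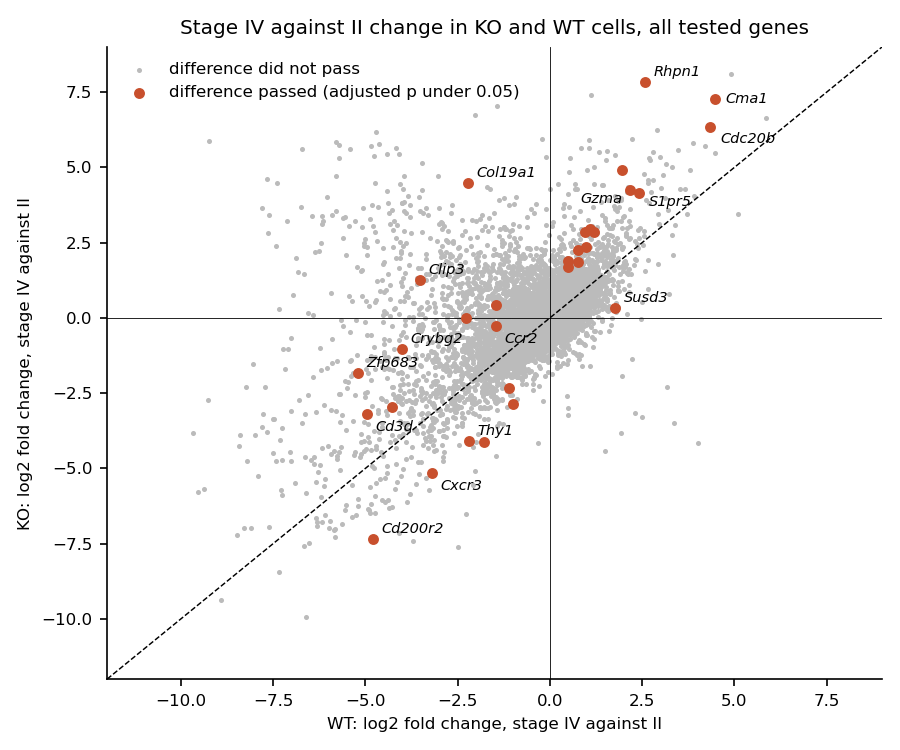
Log2 fold change of stage IV against stage II in WT (x axis) and KO (y axis) cells for all 14156 tested genes. The dashed line marks equal change, and red points are the 30 genes whose changes differed between genotypes. Of these, 23 lie above the line and 7 below it.

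S1pr5 and Thy1 differed between genotypes in each of the 18 fits that left out a library. S1pr5 stood at 58.3, 47.9 and 54.3 CPM in WT stage II and 299, 273 and 237 CPM in WT stage IV. Its KO stage II libraries lay below those of WT and its KO stage IV libraries overlapped them, and the rise was steeper in KO by 1.72 ± 0.19 on the log2 scale (adjusted p = 0.00117, n = 3 per group). Thy1, a surface glycoprotein of T cells and immature NK cells, fell from 69.1, 43.8 and 48.3 CPM to 2.84, 2.70 and 3.48 CPM in KO. In WT it fell from 69.7, 60.9 and 51.3 CPM to 11.5, 14.7 and 11.1 CPM, so that KO stage IV ended lower (log2 difference -1.90 ± 0.26, adjusted p = 0.00565).

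Gzma showed the same form as S1pr5 at a much higher level. WT libraries were at 3484, 3635 and 3454 CPM in stage II and 16967, 14636 and 13683 CPM in stage IV. The KO values given above were far lower in stage II and overlapped those of WT in stage IV (log2 difference 2.06 ± 0.34, adjusted p = 0.0193). Cma1 was at 46.6, 36.7 and 38.7 CPM in WT stage II and 1060, 770 and 724 CPM in WT stage IV, so that all KO libraries lay below those of WT in either stage, and its change differed by 2.81 (adjusted p = 0.0439). Rhpn1 was at 6.13, 12.6 and 11.8 CPM in WT stage II and 81.0, 51.2 and 45.3 CPM in WT stage IV, so that its KO libraries stayed below those of WT in both stages. Khdc1b, an oocyte-type RNA-binding protein gene, also stayed below WT in both stages, at 0.307, 0.126 and 0.547 CPM and then 7.44, 10.7 and 10.3 CPM in KO. The calls of Gzma, Cma1, Rhpn1 and Khdc1b held in 10, 4, 11 and 3 of the 18 fits without a library, and each kept its direction in all 18.

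For Zfp683 and Crybg2 the fall with maturation was smaller in KO than in WT. Zfp683, the gene of Hobit, a factor of tissue-resident lymphocytes, fell 3.59-fold in KO, from 38.5, 26.6 and 28.7 CPM to 10.4, 8.79 and 5.73 CPM. In WT it fell from 9.07, 6.64 and 8.90 CPM to 0.169, 0.243 and 0.196 CPM, so KO stage IV libraries overlapped WT stage II (log2 difference 3.37 ± 0.49, adjusted p = 0.00796). This call ended without KO stage II replicate 3 or WT stage IV replicate 3. Crybg2 was at 39.5, 34.8 and 36.1 CPM in KO stage II and 18.5, 17.0 and 15.7 CPM in KO stage IV, against 15, 7.12 and 9.09 CPM and 0.847, 0.446 and 0.489 CPM in WT (log2 difference 2.97, adjusted p = 0.0131). Crybg2 overlaps the abundant gene Cd52 on the other strand, which had a mean of 43774 counts over the 6 KO libraries, so its reads may be uncertain. The call of its difference ended without KO stage II replicate 3 or WT stage IV replicate 2 or 3, and that of its fall in KO without KO stage II replicate 1 or KO stage IV replicate 2 or 3.

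Ccr2 and Capn3 fell with maturation in WT but not detectably in KO. Ccr2 went from 987, 1032 and 964 CPM in WT stage II to 321, 344 and 361 CPM in WT stage IV, while the KO stage II libraries were already at 468 to 495 CPM (log2 difference 1.19 ± 0.16, adjusted p = 0.00565). Only the fit without KO stage II replicate 3 lost this call. Capn3, a calcium-dependent protease that overlaps Ganc on the same strand, was at 9.20, 5.69 and 10.2 CPM in KO stage II and 5.99, 9.46 and 8.18 CPM in KO stage IV. In WT it went from 32.8, 21.1 and 22.1 CPM to 4.66, 5.28 and 4.75 CPM (log2 difference 2.26, adjusted p = 0.0216), and this call held in 8 of the 18 fits without a library.

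Among genes with a lower change in KO, Cxcr3 fell in WT from 721, 536 and 495 CPM to 47.4, 61.9 and 70.4 CPM, and the KO stage IV libraries lay below all of these (log2 difference -1.97, adjusted p = 0.0439). Cd200r2 started higher in KO stage II than in WT, where it went from 51.0, 26.5 and 24.8 CPM to 0.847, 1.26 and 1.32 CPM (log2 difference -2.56, adjusted p = 0.0216). Slc27a6, a fatty acid transporter, fell 17.4-fold in KO from 42.2, 31.0 and 40.0 CPM to 1.71, 2.46 and 2.0 CPM (log2 difference -2.34, adjusted p = 0.0216). Ptger2, a receptor for prostaglandin E2, fell 7.21-fold in KO (log2 difference -1.84, adjusted p = 0.025). Susd3 was higher in KO stage II, at 46.8, 36.8 and 42.1 CPM, than in WT stage II, at 25.9, 12.2 and 12.8 CPM, while both genotypes were at 46.4 to 56.0 CPM in stage IV (log2 difference -1.45, adjusted p = 0.0439). These calls held in 6, 10, 9, 10 and 8 of the 18 fits without a library, in the order named, and kept their direction in all.

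**Figure D4:**
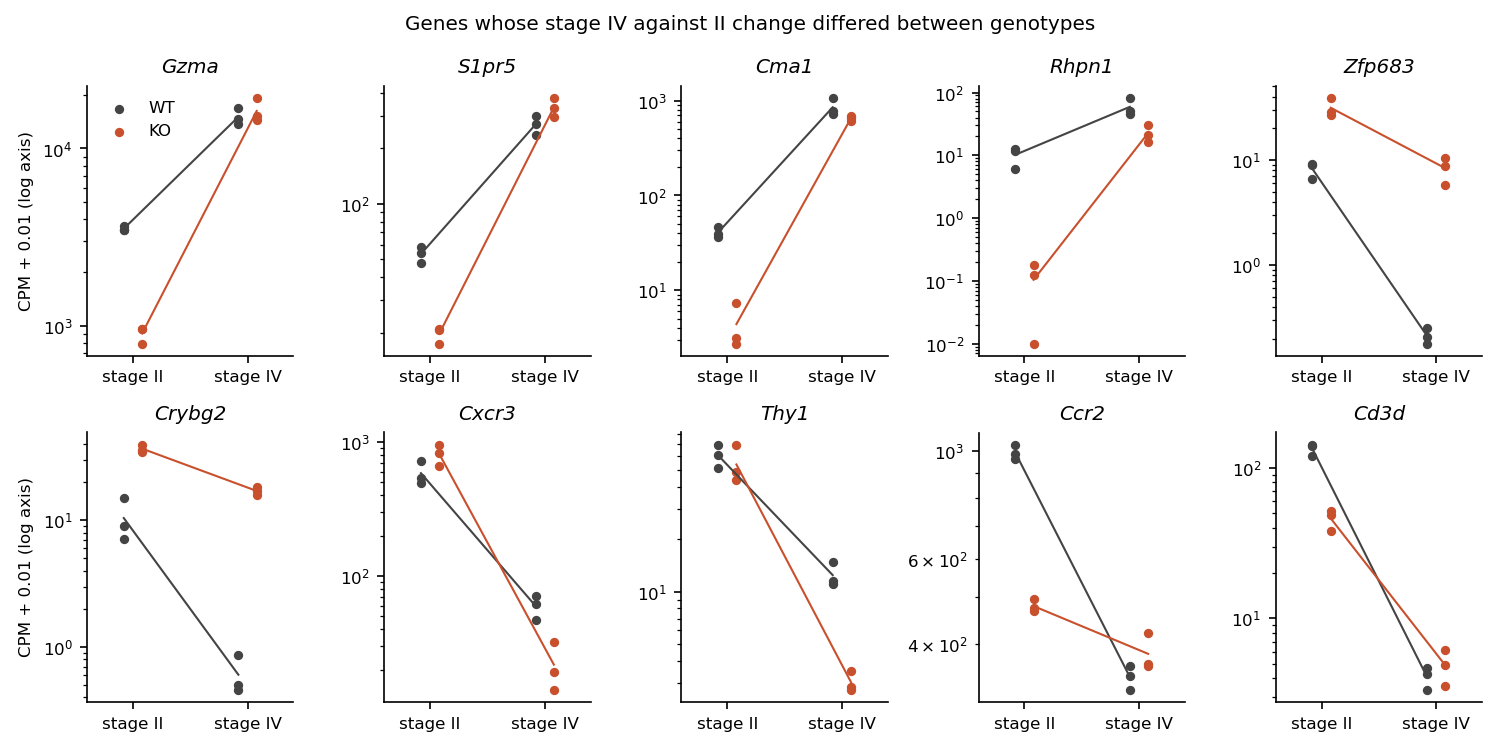
CPM (log axis, with 0.01 added) of 10 genes whose stage IV against II change differed between genotypes, in each WT (grey) and KO (red) library, with lines between group means. Gzma and S1pr5 start lower in KO stage II and overlap WT in stage IV, Cma1 and Rhpn1 stay below WT in both stages, and Zfp683 and Crybg2 stay above WT in both stages.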

How the data were processed

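RNA of 18 libraries of sorted splenic NK cells was sequenced. The authors aligned and counted the reads with tools that the submitters' processing notes list as STAR 2.0.4, Subread and featureCounts 1.4.5. The sources used here name no genome build, read type or strand setting. Raw count, CPM and RPKM stand side by side for each Ensembl gene, per the file headers. The deposited CPM and RPKM are rescaled counts, so tests used the counts only, and CPM printed here is the count scaled to the library total. Gene IDs were matched to GENCODE M21 (GRCm38): 40254 of 41388 had a symbol there and 40195 overlapped their listed position.

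The main test was the quasi-likelihood test of edgeR 4.0.16 (R 4.3.3) on the counts, after its group-wise filter on low genes and TMM scaling. All 18 libraries entered a single model with 6 group means, which gave a spread common to all groups. Contrasts were KO stage IV minus II, WT stage IV minus II, and their difference. Each SE is the size of the log2 change over the root of F, and fitted values used a prior count of 0.125. Benjamini and Hochberg's method adjusted p over the 14156 tested genes. DESeq2 1.42.0 and limma-voom 3.58.1 were alternatives. The script was tested on simulated data.

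The comparison, the 23 lists (368 genes) and the naming rule were chosen with earlier results of these data known. The rule named Eomes, Tbx21, Cd27, Itgam and Ncr1, and the 12 highest and 12 lowest called fold changes among genes at 20 CPM or more with groups that do not overlap. It also named the 6 highest and 6 lowest differences between genotypes at 20 CPM or more, and list members that passed; a few of these are not reported here. Depth was 18684350 to 28365837 counts a library. PCR copies cannot be told from molecules, so stated errors are from the spread between libraries. Replicates in no pair agreed within sampling noise, so none was counted as a duplicate.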

Additional observations from a re-analysis of the deposited data

Results flagged for a closer look

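The 30 genes below had a stage IV against II change that differed between KO and WT cells by the test of the difference itself (edgeR's quasi-likelihood test, adjusted p under 0.05). Each value is the KO change minus the WT change on the log2 scale. The differences of S1pr5 (1.72), Thy1 (-1.90), Gzma (2.06), Cma1 (2.81), Rhpn1 (5.26), Khdc1b (2.97), Zfp683 (3.37), Crybg2 (2.97), Ccr2 (1.19) and Capn3 (2.26) are described above. So are those of Cxcr3 (-1.97), Cd200r2 (-2.56), Slc27a6 (-2.34), Ptger2 (-1.84) and Susd3 (-1.45).

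Among the others, the arsenic methyltransferase gene As3mt rose from 49.8, 59.8 and 44.3 CPM to 346, 354 and 373 CPM in KO and from 144, 184 and 174 CPM to 350, 390 and 345 CPM in WT, a difference of 1.67. Cdc20b (2.01), Klhl30 (1.52), Phactr3 (1.39), Cym (1.88), Ncald (1.19) and Ms4a15 (1.85) also rose in both genotypes from a lower level in KO stage II. Ubxn11 (1.09) and Racgap1 (1.42) rose to 109 to 148 and 86.7 to 133 CPM in KO stage IV, against 59.2 to 67.1 and 63.9 to 87.1 CPM in WT stage IV. The end of Ubxn11 overlaps the abundant gene Sh3bgrl3 on the other strand, with a mean of 27432 counts over the 6 KO libraries. Reads of Ubxn11 may thus be uncertain. Cd3d (1.76) fell in both, from 142, 139 and 120 CPM in WT stage II but from 48.7, 37.9 and 51.8 CPM in KO stage II, to 3.33 to 6.14 CPM in stage IV of either genotype. Slco3a1 (1.33) fell less in KO, to 4.6, 4.02 and 5.44 CPM, than in WT, to 0.847, 1.18 and 1.03 CPM. Clip3 (4.79) fell in WT from 10.5, 23.2 and 21.1 CPM to 1.86, 1.30 and 1.42 CPM and was at 0.501 to 3.14 CPM in the KO libraries of both stages. The antisense gene Gm15518 (1.90) overlaps Ift57 on the other strand, and its reads may not be its own. Apol7e (-1.21) fell in both and further in KO, to 21.2, 20.2 and 18.9 CPM. Col19a1 (6.70) rests on 2, 1 and 0 counts in KO stage II and 14, 13 and 43 in KO stage IV, while WT went from 3.19, 2.08 and 2.48 CPM to 0.551, 0.568 and 0.441 CPM, with the 43 in the library with the most low-count genes.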

How the results depend on the processing

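Against 2106 genes changed in KO, 4191 (1919 higher, 2272 lower) were called by voom with sample quality weights and 3780 (1670 and 2110) without all KO stage III libraries. Without KO stage III replicates 1 and 3 together there were 3355 (1373 and 1982), and with at least 2-fold change 1209 (453 and 756). Leaving out 1 library gave 1429 to 2540 (539 to 1037 higher, 865 to 1547 lower), and these fits shared 67.43% to 98.39% of the 2106. The WT count of 2135 became 5155 with voom, 3663 with only its own libraries, 3950 without all KO stage III libraries, 3596 without KO stage III replicates 1 and 3, 1150 with at least 2-fold change, and 1289 to 2619 with 1 library left out. The count of 30 differences between genotypes became 134 by DESeq2, 274 by voom, 1671 with no filter on low counts and 113 with only stage II and IV libraries. It became 153 without all KO stage III libraries, 123 without KO stage III replicates 1 and 3, and 2 to 66 with 1 library left out. In a setting chosen after seeing the data, without KO stage IV replicate 3 and WT stage II replicate 1, it was 13. The cause was not tested. No called single-gene change reversed under the settings run, while some values that had not passed changed sign. Over all pairs of a named gene and a setting, the KO comparison kept its side of the threshold in 11115, lost a call in 190 and gained one in 209, and the 30 differences were kept in 613 and lost in 287.

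Same-numbered KO stage II and IV libraries deviated together with correlations of 0.052, 0.162 and 0.022 across genes, and stage II replicate 3 correlated best with stage IV replicate 1 (0.108). The numbers were therefore not taken to pair the KO stage II and IV samples. The summed immediate early and stress genes did follow the numbers. They were lowest in replicate 1 and highest in replicate 2 in each KO stage. In each WT stage they were lowest in replicate 1 and highest in replicate 3. Whether the numbers mark shared experiments was not tested. WT stage II and IV pairs gave 0.332, 0.218 and 0.304, each over the 0.1 set for pairing, and KO stage II and III pairs 0.153, 0.297 and 0.317. KO stage III and IV pairs gave 0.26, 0.256 and -0.023. The main model used no pairing in either genotype, so the WT count of 2135 and the 30 differences are unpaired results. With the replicate block, 2544 genes changed in KO, 2604 in WT, and 59 differed between genotypes. Depth limits the values of genes with few counts.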

Other observations

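Further gene families were looked at after their values were seen, so they are descriptions. Some members, among them Tnfsf10 and Tnfrsf10b, also stand on lists above, so these counts are not independent of those. Over all tested genes, 6.12% rose and 8.76% fell. Of 16 tested genes of the TNF receptor superfamily, in a set that leaves out Cd27, 8 fell and none rose in KO stage IV. Tnfrsf25 (death receptor 3) fell from 98.4, 79.7 and 85.5 CPM to 1.87, 1.03 and 1.06 CPM, and Tnfrsf21 had a log2 fold change of -4.08. Of 8 tested TNF superfamily ligands, in a set that leaves out Tnf, Lta and Ltb, 5 fell. Tnfsf12 (TWEAK) rose from 6.06, 5.31 and 6.20 CPM to 20.1, 15.5 and 14.9 CPM. Tnfsf8 (CD30 ligand) fell from 106, 110 and 96.0 CPM to 13.3, 10.7 and 8.18 CPM. P2rx7, an ATP-gated channel, fell from 22, 16 and 15.1 CPM to 0.107, 0.159 and 0.655 CPM, and the other 7 tested P2 receptor genes did not pass. Annexin A8 (Anxa8) rose from 6.06, 12.9 and 7.70 CPM to 63.7, 77.5 and 79.5 CPM. Lgals1, the gene of galectin-1, rose from 481, 564 and 551 CPM to 2198, 1694 and 1798 CPM. Of 79 cytosolic ribosomal protein genes, 15 fell and none rose, with a median log2 fold change of -0.41.

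Some genes whose change differed between genotypes are neighbours. Zfp683, Crybg2 and Ubxn11 follow each other on chromosome 4 between 134053838 and 134127593 (GRCm38), with gaps of 6916 and 10066 bases. No other tested gene lies wholly in the gaps, but the abundant gene Cd52 (134082448 to 134095082) overlaps Crybg2 and reaches into the gap before Ubxn11. Sh3bgrl3, also abundant, overlaps the end of Ubxn11. Cdc20b and Gzma on chromosome 13 are 2630 bases apart, and Gpx8, with the largest fitted rise of the 14156 tested genes, lies within Cdc20b. All of these had a higher change in KO than in WT, with a log2 difference of 3.17 for Gpx8 that did not pass (adjusted p = 0.293). The other 25 of the 30 were at least 933214 bases from each other or alone on their chromosome. Whether neighbours share reads or regulation was not tested.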
